A study of Mus musculus with 6 samples.

Results

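Collagens are secreted or membrane proteins whose chains carry long glycine-rich repeats and wind into helical trimers. The fibrillar types form the tensile fibres of connective tissue, type IV chains form the sheet of basement membranes, FACIT collagens sit on the surface of fibrils, and transmembrane collagens span the cell membrane. Lung fibroblasts are known as a main source of types I, III and VI in that organ. The rows described here are the collagen genes of a mouse gene table, chosen by their symbols (Col, a number, the letter a and a number) and by a summed raw count of at least 30 over 6 libraries. They are 39 of the 25239 rows. A further 5 collagen rows, Col2a1, Col9a1, Col9a2, Col6a4 and Col26a1, fell below that count. Just inside the limit lay Col25a1 with 30 counts in all, and just outside it lay Col6a4 with 23. Of the 39 genes, 37 passed the filter on low counts and were tested, and Col25a1 and Col6a5 did not.

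The libraries came from primary mouse lung fibroblasts, 3 labelled senescent after Nutlin 3a (PF-nSene) and 3 labelled quiescent (PF-Quie). Nutlin 3a keeps Mdm2 from binding p53. Per the labels, cells were kept in 10% serum at 5% oxygen, and senescence was set off by RO3306, a Cdk1 inhibitor, for 16 hours and Nutlin 3a for 48 hours, followed by the Plk1 inhibitor BI-2536 at 100 nM to remove cycling cells, 12 days in all. The quiescent samples carry the same text; neither the means of inducing quiescence nor the strain and age of the mice are stated in the labels. Whether replicates were separate cultures or animals is not stated either. The p-values therefore set the group difference only against the scatter within the groups of these 6 libraries, which may be technical.

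Total RNA depleted of ribosomal RNA was sequenced to 93736593 to 109706025 gene counts per library, of which 18219831 to 21386546 lay outside the rows Rn45s, Lars2 and Mir6236. Senescent replicate 3 stood farthest from its group. Over all tested genes its median absolute log2 difference from the other senescent libraries was 0.11, against 0.06 to 0.09 for the other 5 libraries. Over the collagen genes it was 0.22, against 0.08 to 0.17 for the other 5 libraries, with senescent replicate 2 at 0.17. Fibroblast markers were present in every library, with summed levels of 665 to 725 CPM (counts scaled to library size) in senescent and 819 to 824 CPM in quiescent libraries, 3 of 10 higher and 6 lower; of all 14065 tested genes 36.7% were higher and 37.8% lower. Epithelial Epcam, Cdh1 and Sftpc, endothelial Pecam1 and leukocyte Ptprc had fewer than 30 counts over all 6 libraries, and Nkx2-1 was at 0. Smooth muscle and pericyte markers summed to 212 to 321 CPM in senescent and 97.9 to 117 CPM in quiescent libraries (6 of 8 higher, 1 lower), macrophage markers to 10.7 to 14.1 and 3.90 to 4.15 CPM (4 of 4 tested higher), and chondrocyte and osteoblast markers to 23.7 to 28.9 and 15.7 to 19.2 CPM (2 of 4 tested higher, 2 lower). Endothelial markers summed to 11.0 to 13.2 CPM in senescent and 6.79 to 7.67 CPM in quiescent libraries (2 of 5 tested higher, 1 lower). Mesothelial markers summed to 8.97 to 11.0 and 8.70 to 9.91 CPM (1 of 6 tested higher, 3 lower). The epithelial list summed to 6.15 to 7.91 CPM in senescent libraries and at most 1.29 CPM in quiescent libraries, with 2 of its 11 genes tested and both higher. The part of these markers in the collagen results was not tested. In such bulk samples, fewer cells of a type and less RNA per cell cannot be told apart.

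Collagen genes made up 2.21%, 2.31% and 1.94% of the counts outside those 3 rows in the senescent libraries, and 2.72%, 2.81% and 2.74% in the quiescent libraries, without overlap. The lower total rested largely on Col3a1. That gene alone held 7.43% to 8.32% of the collagen counts in senescent and 26.4% to 29.7% in quiescent libraries. With an adjusted p below 0.05 in edgeR's quasi-likelihood test, senescent libraries held more of 11 and less of 17 of the 37 tested genes, which is 75.7% of them. Over all 14065 tested genes the share called was 74.5% (36.7% higher and 37.8% lower), so the share of collagen genes called was near the background. The median log2 fold change (senescent over quiescent) of the collagen genes was -0.26, and that of all tested genes was -0.02. Changes of 2-fold or more among the genes that passed were found for 7 higher and 9 lower collagen genes (43.2%, against 25.3% of all tested genes). In 28 of the 37 genes (75.7%) the senescent and quiescent libraries did not overlap in CPM, against 78.3% of all tested genes. Scaling by library totals in place of TMM moved the median of all genes to -0.32 and the collagen median to -0.55, with 9 collagen genes higher and 21 lower.

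**Figure D1:**
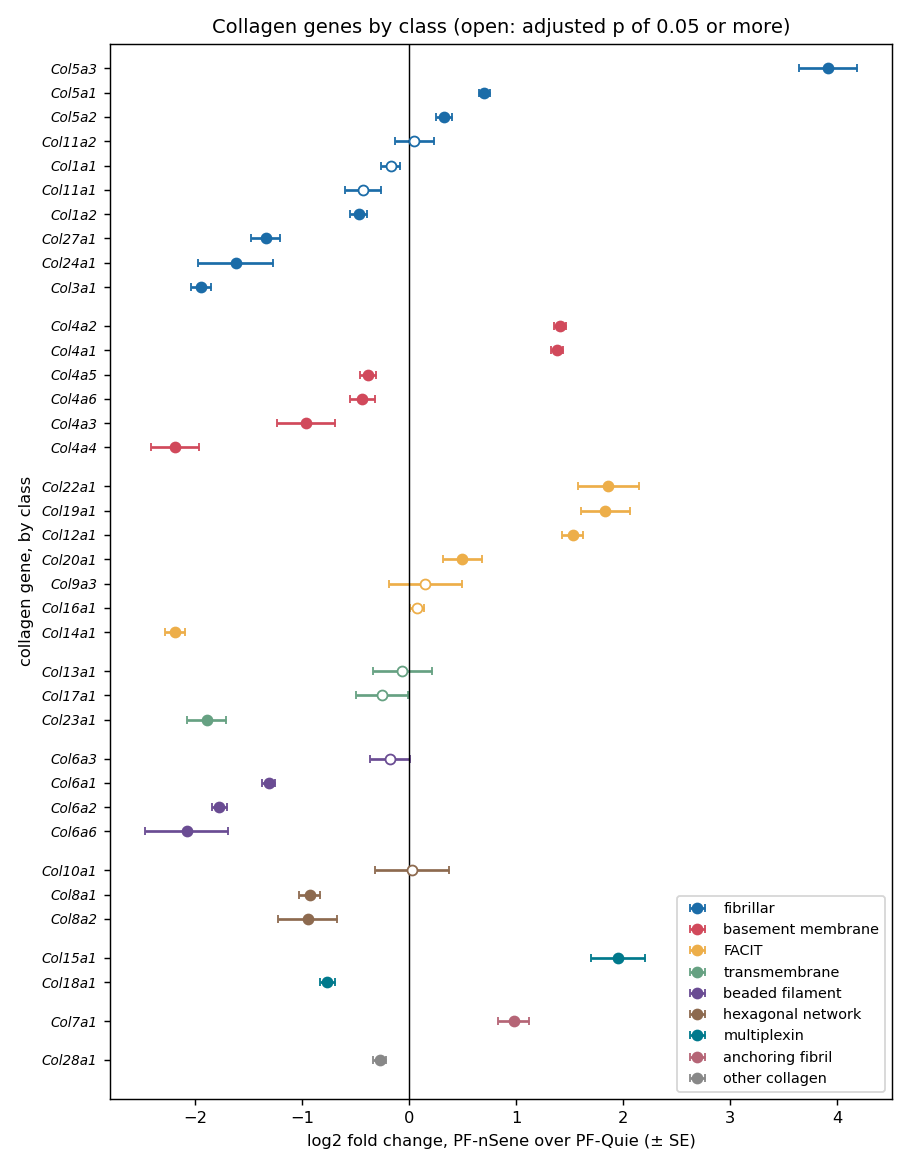
Log2 fold change (senescent PF-nSene over quiescent PF-Quie) of the 37 tested collagen genes, grouped by structural class, with the standard error of each as a horizontal bar; filled points passed an adjusted p of 0.05 and open points did not. The fibrillar, basement membrane, FACIT and multiplexin classes hold called changes in both directions, from 3.91 for Col5a3 to -2.19 for Col4a4, whereas the beaded filament, transmembrane and hexagonal network classes have no filled point above 0.

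The fibrillar class was split between the type V genes, which were higher, and Col1a2 and Col3a1, which were lower. Of its 10 tested genes 3 were higher, 4 lower and 3 did not pass, with a median log2 fold change of -0.30. The shares were near those of all tested genes, of which 36.7% were higher and 37.8% lower. Type I collagen, built from Col1a1 and Col1a2 chains, is the main fibre protein of connective tissue. Col1a1 measured 896, 935 and 739 CPM in the senescent libraries, against 988, 1007 and 906 CPM in the quiescent libraries. These ranges overlap, and the log2 fold change of -0.17 (standard error, SE, 0.09) did not pass (edgeR adjusted p = 0.086). Its adjusted p ran from 2.0e-04 to 1.0 over 16 alternatives, under 0.05 in 4 of them, with a negative sign in all 16. Col1a2 measured 630.3, 655 and 524 CPM in senescent and 824, 865 and 819 CPM in quiescent libraries. Every senescent library was below every quiescent one, with a log2 fold change of -0.47 (SE 0.08, edgeR adjusted p = 2.2e-04).

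Col3a1 encodes type III collagen, a homotrimer that co-assembles with type I in stretchable tissues such as lung. It measured 355, 391 and 299 CPM in senescent libraries, against 1287, 1317 and 1421 CPM in quiescent libraries. The level was 3.85-fold lower in senescent cells (log2 fold change -1.95 with SE 0.09, edgeR adjusted p = 1.0e-08), and senescent replicate 3 was the lowest of the 6. Per kilobase of merged exons, Col1a1 averaged 131 ± 15.8 and Col3a1 35.5 ± 4.70 CPM per kb in senescent libraries, against 147 ± 8.15 and 137 ± 7.17 CPM per kb in quiescent libraries (SD, n = 3). The ranges of both genes overlapped in quiescent libraries, at 138 to 153 CPM per kb for Col1a1 and 131 to 145 CPM per kb for Col3a1, and lay apart in senescent ones. On this scale Col3a1 ranked 6 of the 39 genes in senescent cells and 2 in quiescent cells.

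Type V chains join type I in the core of fibrils and limit their diameter, and all 3 of their genes were higher in senescent libraries. Col5a1 measured 257, 266 and 246 CPM, against 156, 163 and 155 CPM in quiescent libraries (log2 fold change 0.70 with SE 0.05, edgeR adjusted p = 2.2e-07). Col5a2 measured 722, 749 and 619 CPM in senescent and 550.2, 594 and 526 CPM in quiescent libraries. Those groups do not overlap, and the log2 fold change of 0.32 (adjusted p = 0.0026 in edgeR) became 0.02 when scaled by library totals. Col5a3, which encodes the least widely expressed chain, measured 57.7, 53.4 and 97.6 CPM in senescent libraries and 4.40, 4.51 and 4.94 CPM in quiescent libraries. It was 15.1-fold higher (log2 fold change 3.91 with SE 0.27, edgeR adjusted p = 1.5e-05), the largest change among the tested collagen genes. Senescent replicate 3 held the most, and without it the log2 fold change was 3.60.

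Shown here are the 250 bases before the RefSeq start of the risen Col5a3 and the fallen Col3a1 (GRCm38.p6), as the fibrillar genes with the largest change in each direction. Col5a3 lies on chromosome 9 (chr9:20815068-20815317, minus strand) and Col3a1 on chromosome 1 (chr1:45311288-45311537, plus strand). Capitals mark CCAAT or GGGCGG on either strand (GGGCGG reads CCGCCC on the other) and TATAAA on the strand shown.
Col5a3: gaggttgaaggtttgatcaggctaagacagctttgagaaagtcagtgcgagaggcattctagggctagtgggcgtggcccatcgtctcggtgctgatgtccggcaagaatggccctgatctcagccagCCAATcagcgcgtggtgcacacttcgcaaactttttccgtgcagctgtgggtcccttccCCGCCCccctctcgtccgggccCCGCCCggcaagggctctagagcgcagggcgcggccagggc
Col3a1: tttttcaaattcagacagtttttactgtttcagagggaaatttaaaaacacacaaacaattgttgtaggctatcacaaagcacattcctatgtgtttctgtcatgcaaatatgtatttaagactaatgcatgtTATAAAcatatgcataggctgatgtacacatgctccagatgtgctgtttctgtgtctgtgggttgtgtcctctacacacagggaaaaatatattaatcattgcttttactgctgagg
The Col5a3 stretch holds CCAAT and CCGCCC, and the Col3a1 stretch holds TATAAA and neither of the others. RefSeq windows were matched for 32 of the 39 genes (34 windows). Over the 250 bases before the start, 58.8% of the collagen windows and 32.7% of all 32851 windows held GGGCGG, 32.4% and 33.8% held CCAAT, and 14.7% and 7.59% held TATAAA. A match of letters is a description and not a binding site.

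Col11a1, whose chain joins type V or XI trimers, measured 28.9, 29.8 and 22.0 CPM in senescent and 38.8, 41.0 and 28.7 CPM in quiescent libraries. The groups overlap at one end, and the log2 fold change of -0.43 gave an adjusted p of 0.052 in edgeR, with 6.8e-06 to 1.0 over 16 alternatives and 7 of them past the threshold. Col11a2 had a log2 fold change of 0.05 (adjusted p = 0.83 in edgeR), which was negative under upper quartile scaling, under library totals, and without quiescent replicate 3 or senescent replicate 3. Col27a1, a fibrillar collagen known from cartilage, measured 1.22, 1.30 and 1.34 CPM in senescent and 3.05, 2.82 and 3.95 CPM in quiescent libraries (log2 fold change -1.34 with SE 0.13, edgeR adjusted p = 3.2e-06). Col24a1, its close relative from bone, measured 0.140, 0.235 and 0.0875 CPM, from 14, 21 and 9 counts, against 0.414, 0.346 and 0.651 CPM in quiescent libraries, from 44, 41 and 69 counts. Both groups of libraries stood apart for it, with a log2 fold change of -1.62 (SE 0.35, edgeR adjusted p = 0.0015).

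**Figure D2:**
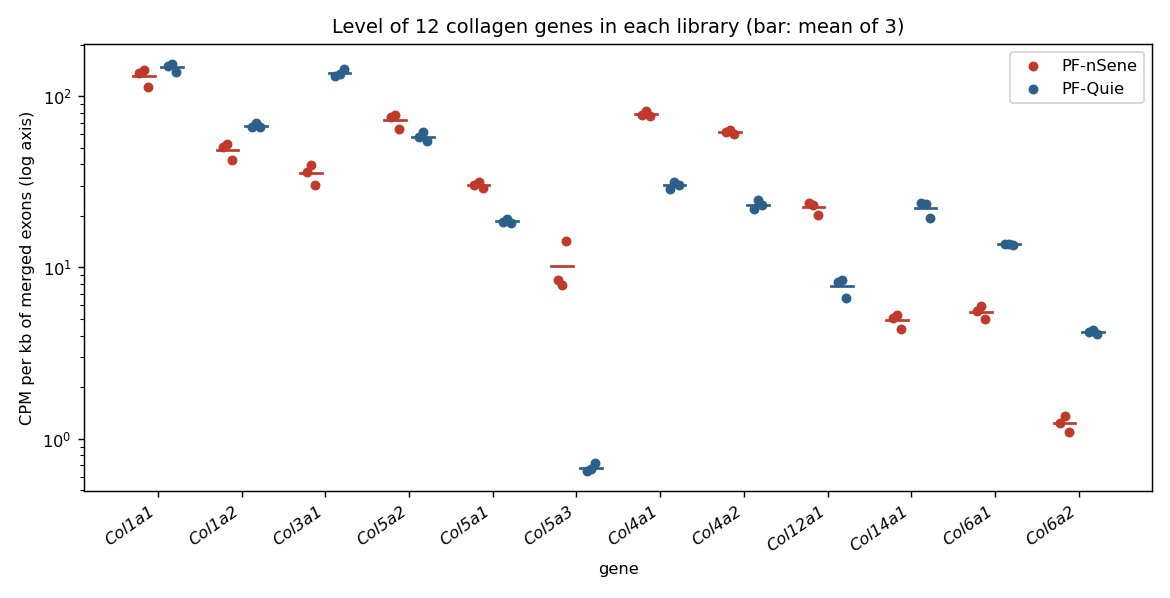
Level of 12 collagen genes in each library, as CPM per kb of merged exons on a log axis, with the mean of each group as a bar; senescent libraries (PF-nSene, red) are drawn left of quiescent ones (PF-Quie, blue). Col4a1, Col4a2, Col12a1 and Col5a3 sit higher in senescent libraries, Col3a1, Col14a1, Col6a1 and Col6a2 sit lower, and the points of Col1a1 overlap.

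Basement membrane collagen changed in opposite directions between its chains. Type IV trimers are made from Col4a1 with Col4a2 chains in most tissues, and from Col4a3, Col4a4, Col4a5 and Col4a6 chains in specialised membranes such as those of kidney and lung alveoli. All 6 genes passed the test, 2 higher and 4 lower. Of all tested genes 74.5% passed, with 36.7% higher and 37.8% lower. Col4a1 measured 579, 609 and 572 CPM in senescent libraries and 213, 235 and 227 CPM in quiescent libraries, a 2.61-fold higher level (log2 fold change 1.38 with SE 0.06, edgeR adjusted p = 2.1e-09). Col4a2 measured 409, 419 and 399 CPM in senescent libraries and 145, 163 and 154 CPM in quiescent libraries, 2.66-fold higher (log2 fold change 1.41 with SE 0.06, edgeR adjusted p = 1.7e-09). The lowest senescent library of each gene held more than the highest quiescent library. Per kb, Col4a1 ranked 2 of 39 in senescent cells, behind Col1a1, and its mean there (78.6 ± 2.66 CPM per kb) was within the spread of the next gene, Col5a2 (72.6 ± 7.19 CPM per kb, SD, n = 3). Within each senescent library Col4a1 was the higher of these genes, at 77.6, 81.6 and 76.6 against 75.3, 78.1 and 64.5 CPM per kb.

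Col4a4 measured 0.130, 0.101 and 0.107 CPM in senescent libraries (13, 9 and 11 counts) and 0.527, 0.565 and 0.462 CPM in quiescent libraries (56, 67 and 49 counts). It was 4.56-fold lower (log2 fold change -2.19 with SE 0.22, edgeR adjusted p = 3.3e-06). Its neighbour Col4a3 had a log2 fold change of -0.97 (SE 0.27, edgeR adjusted p = 0.0068). The X-linked pair Col4a5 and Col4a6 fell by 0.38 and 0.44 on the log2 scale (adjusted p = 7.9e-04 and 0.0056 in edgeR). Per kb, Col4a4 averaged 0.0106 ± 0.00147 CPM in senescent and 0.0488 ± 0.00489 CPM in quiescent libraries, and Col4a5 2.54 ± 0.274 and 3.31 ± 0.177 CPM (SD, n = 3).

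The type IV genes lie in head-to-head pairs whose members start close together and run apart, so the bases between or under the starts are shown. In the GENCODE M21 annotation (GRCm38), Col4a1 (chromosome 8, 11198423 to 11312826, minus strand) and Col4a2 (chromosome 8, 11312805 to 11449287, plus strand) overlap by 22 bases of their first exons. The starts of Col4a4 and Col4a3 on chromosome 1 have 71 bases between them, and those of Col4a6 and Col4a5 on the X chromosome 1308 bases. The 22 shared bases are chr8:11312805-11312826 and the 71 bases between are chr1:82586850-82586920, both written along the minus strand from the RefSeq windows of Col4a1 and Col4a4, with capitals as above.
Col4a1 and Col4a2: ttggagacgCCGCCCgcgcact
Col4a4 and Col4a3: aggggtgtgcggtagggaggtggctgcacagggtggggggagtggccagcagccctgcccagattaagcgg
The first holds CCGCCC, and the second holds none of the motifs searched. Within each pair the fold changes had the same sign: 1.38 and 1.41 for Col4a1 and Col4a2, -2.19 and -0.97 for Col4a4 and Col4a3, and -0.44 and -0.38 for Col4a6 and Col4a5. Col3a1 and Col5a2, whose ends face each other 24614 bases apart on chromosome 1, had opposite signs, with log2 fold changes of -1.95 and 0.32. Col6a1 and Col6a2, which are not head to head, also shared a sign (-1.31 and -1.78). They lie on the same strand of chromosome 10, 85161 bases apart. Whether the sign goes with the arrangement of a pair was not tested.

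Of the 7 tested FACIT genes 4 were higher and 1 lower, with a median log2 fold change of 0.50. Of all tested genes 36.7% were higher and 37.8% lower. The 4 include Col20a1, whose call did not hold in every alternative. The class's abundant members went opposite ways. Col12a1, whose product bridges fibrils and is known from tissue under tension (chromosome 9, 79598991 to 79718831), measured 363, 351 and 309 CPM in senescent libraries and 125, 128 and 101 CPM in quiescent libraries. It was 2.88-fold higher (log2 fold change 1.53 with SE 0.10, edgeR adjusted p = 3.8e-07). Col14a1, its close relative and a marker of some lung fibroblast subsets (chromosome 15, 55307750 to 55520803), measured 35.3, 37.1 and 30.8 CPM in senescent libraries and 167, 166 and 137 CPM in quiescent libraries. It was 4.55-fold lower (log2 fold change -2.19 with SE 0.09, edgeR adjusted p = 2.2e-08), again without overlap.

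The remaining higher FACIT genes had low counts. Col19a1 measured 1.20, 0.760 and 1.38 CPM in senescent libraries against 0.292, 0.346 and 0.302 CPM in quiescent libraries (log2 fold change 1.83 with SE 0.23, edgeR adjusted p = 2.0e-05). Col22a1, known from muscle and tendon junctions, measured 0.271, 0.358 and 0.243 CPM in senescent libraries, from 27, 32 and 25 counts, and 0.0659, 0.0843 and 0.0849 CPM in quiescent libraries, from 7, 10 and 9 counts (log2 fold change 1.86 with SE 0.29, edgeR adjusted p = 1.0e-04). Col20a1 passed with a log2 fold change of 0.50 (adjusted p = 0.025 in edgeR), but its adjusted p ran from 0.019 to 0.85 over 16 alternatives and the gene passed in 10. Without quiescent replicate 2, quiescent replicate 3 or senescent replicate 3, in turn, its log2 fold change was 0.49, 0.41 and 0.33 and it did not pass. Col9a3 and Col16a1 did not pass, at 0.15 and 0.07 on the log2 scale. Col16a1 had 20.3 ± 1.55 CPM in senescent and 19.3 ± 1.19 CPM in quiescent libraries (SD, n = 3), and its sign was negative under upper quartile scaling. It passed as lower under library totals (-0.23, edgeR adjusted p = 0.013) and as higher without senescent replicate 3 (0.12, edgeR adjusted p = 0.042), so its direction is not settled; over 16 alternatives its adjusted p ran from 0.013 to 1.0. The sign of Col9a3 was negative under library totals and without senescent replicate 3.

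Of the transmembrane collagens, whose ectodomains can be shed from the cell surface, 3 of 4 were tested and 1 was called. The share called over all tested genes was 74.5%. Col23a1 measured 1.96, 2.11 and 2.64 CPM in senescent and 7.34, 7.16 and 10.5 CPM in quiescent libraries, 3.71-fold lower (log2 fold change -1.89 with SE 0.18, edgeR adjusted p = 2.6e-05). Every senescent library lay below every quiescent one. Col13a1 and Col17a1, a component of hemidesmosomes in skin, had log2 fold changes of -0.06 and -0.26 with standard errors of 0.27 and 0.24, and neither passed. Quiescent replicate 3 held the most Col13a1 (1.17 CPM, against 0.536 and 0.624 CPM in the other quiescent libraries) and the most Col23a1. Without that library the log2 fold change of Col13a1 was 0.35 and still did not pass (edgeR adjusted p = 0.093). Col25a1 had 5, 0 and 6 counts in senescent and 5, 2 and 12 counts in quiescent libraries, too few to test.

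Type VI collagen forms beaded filaments around cells from Col6a1, Col6a2 and a longer chain such as Col6a3. Col6a1 measured 24.4, 26.1 and 21.8 CPM in senescent and 60.2, 59.9 and 59.5 CPM in quiescent libraries (log2 fold change -1.31 with SE 0.06, edgeR adjusted p = 5.1e-09). Col6a2 measured 10.2, 11.3 and 9.15 CPM in senescent and 34.7, 36.0 and 34.2 CPM in quiescent libraries (log2 fold change -1.78 with SE 0.07, edgeR adjusted p = 1.4e-09). The quiescent values of both lay close together and well above the senescent ones. Col6a3 measured 10.6, 11.1 and 6.78 CPM in senescent and 9.56, 11.4 and 11.3 CPM in quiescent libraries. Senescent replicate 3 alone was low for Col6a3, and the log2 fold change of -0.18 (SE 0.18, edgeR adjusted p = 0.40) became 0.02 without it. Under library totals Col6a3 passed as lower, at -0.48 (edgeR adjusted p = 0.013; 0.013 to 1.0 over 16 alternatives). Col6a6, an alternative to Col6a3, measured 0.0401, 0.0224 and 0.0486 CPM in senescent and 0.160, 0.194 and 0.132 CPM in quiescent libraries, from 2 to 5 and 14 to 23 counts (log2 fold change -2.08 with SE 0.39, edgeR adjusted p = 4.3e-04). Col6a5, another such chain, had 4 to 9 counts in senescent and 8 to 15 in quiescent libraries and was not tested.

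In the multiplexin class, whose C-terminal fragments endostatin and restin limit vessel growth, the 2 genes went opposite ways. Col15a1 measured 3.07, 4.35 and 3.51 CPM in senescent and 0.677, 0.759 and 1.39 CPM in quiescent libraries. It was 3.87-fold higher (log2 fold change 1.95 with SE 0.25, edgeR adjusted p = 1.8e-04), and quiescent replicate 3 was the highest of its group. Col18a1, the source of endostatin, measured 7.25, 8.45 and 7.27 CPM in senescent and 13.2, 13.5 and 12.3 CPM in quiescent libraries (log2 fold change -0.77, adjusted p = 1.4e-06 in edgeR). The hexagonal network genes Col8a1 and Col8a2 fell by 0.93 and 0.95 on the log2 scale (adjusted p = 2.5e-05 and 0.0084 in edgeR), while Col10a1, a marker of growth plate cartilage, had 0.03 (adjusted p = 0.95) and was negative under upper quartile scaling, under library totals, and without quiescent replicate 1, quiescent replicate 2 or senescent replicate 1. Col8a2 had only 9 to 11 counts in senescent and 18 to 25 in quiescent libraries. It did not pass with DESeq2 (adjusted p of 0.0015 to 0.11 over 15 alternatives). Col7a1, the anchoring fibril collagen of skin, was higher at 6.83, 5.80 and 9.06 CPM in senescent libraries, against 3.69, 3.74 and 3.61 CPM in quiescent libraries (log2 fold change 0.98 with SE 0.15, edgeR adjusted p = 3.0e-04). Col28a1, known from peripheral nerve, fell by 0.28 on the log2 scale (adjusted p = 0.0021 in edgeR).

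The make-up of collagen transcripts by class was compared as shares of the summed CPM per kb, which do not depend on library scaling. Fibrillar genes held 63.3%, 63.5% and 61.0% in senescent libraries and 76.5%, 76.4% and 77.0% in quiescent libraries. Basement membrane genes held 26.5%, 26.4% and 28.8% in senescent libraries and 9.67%, 10.3% and 10.3% in quiescent libraries. Neither share overlapped between the groups. The single gene with the largest shift was Col3a1, with 6.72 ± 0.408% in senescent and 24.3 ± 1.68% in quiescent libraries, followed by Col4a1 with 15.0 ± 0.769% and 5.35 ± 0.218% (SD, n = 3). The FACIT share was 5.83 ± 0.145% in senescent and 5.88 ± 0.496% in quiescent libraries per kb, but 9.02 ± 0.259% and 6.07 ± 0.565% in raw counts (SD, n = 3), where the long Col12a1 transcript weighs more. Beaded filament genes held 1.43 ± 0.0480% in senescent and 3.34 ± 0.0507% in quiescent libraries (SD, n = 3). No test was made on these sums.

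**Figure D3:**
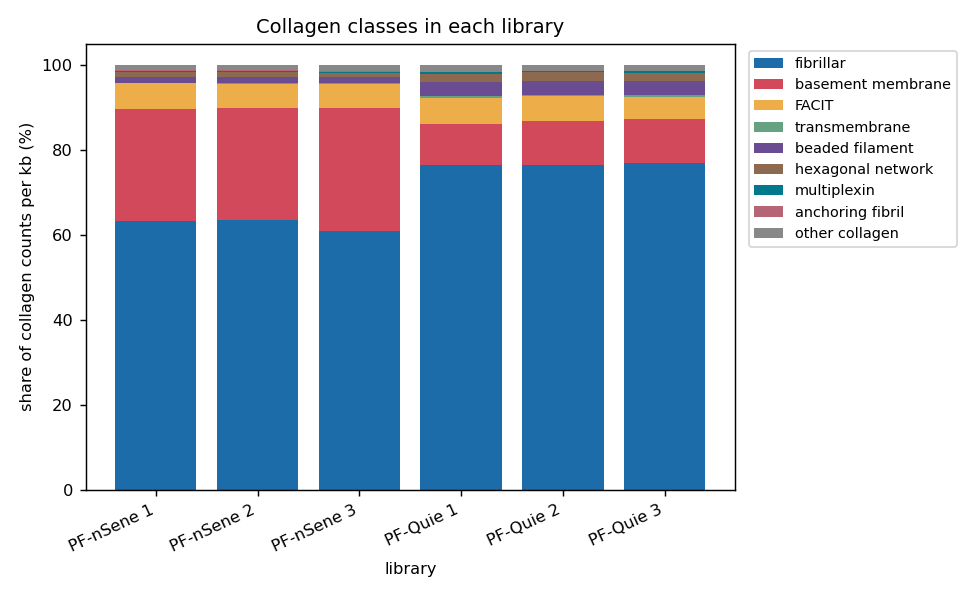
Share of the summed collagen level (CPM per kb of merged exons, in percent) held by each structural class in each library, with the 3 senescent libraries (PF-nSene) left of the 3 quiescent ones (PF-Quie). The basement membrane segment is 26.4% to 28.8% high in senescent libraries and 9.67% to 10.3% in quiescent libraries, and the fibrillar segment 61.0% to 63.5% and 76.4% to 77.0%.

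Chains of one collagen type, and related genes of one class, were set against each other as ratios of CPM per kb, which also cancel library scaling. In 10 of the 12 ratios computed the groups did not overlap, each with an exact two-sided permutation p of 0.1 (0.12 adjusted over the 12), which is the smallest that 3 against 3 libraries can give, so none could pass 0.05. Taken singly, 78.3% of all tested genes did not overlap. Ratios of other gene pairs were not computed, so the count is not a trait of collagen chains. The ratio of Col4a1 to Col4a2 averaged 1.27 ± 0.0179 in senescent and 1.30 ± 0.0176 in quiescent libraries (SD, n = 3). Their ranges overlap (exact permutation p = 0.2, a mean log2 difference of -0.03), although both genes were over 2-fold higher. Col8a1 to Col8a2 was the other ratio that overlapped (exact permutation p = 0.9, a mean log2 difference of 0.01). Its denominator, Col8a2, had only 9 to 25 counts per library. The ratio of Col1a1 to Col1a2 was 2.69, 2.70 and 2.67 in senescent and 2.27, 2.20 and 2.09 in quiescent libraries. Merged exons include rare transcripts, so the size of this ratio depends on the length used. In raw counts it averaged 1.42 in senescent and 1.16 in quiescent libraries, with the same log2 difference between groups (0.30).

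Within the fibrillar types, Col3a1 to Col1a1 was 0.265, 0.279 and 0.271 in senescent and 0.871, 0.875 and 1.05 in quiescent libraries. The ratio of Col5a1 to Col1a1 went the other way, at 0.222, 0.220 and 0.258 in senescent and 0.122, 0.125 and 0.132 in quiescent libraries. Among type V chains, Col5a3 to Col5a1 was 0.280, 0.250 and 0.494 in senescent and 0.0352, 0.0346 and 0.0398 in quiescent libraries. In every library Col5a3 was thus the minor chain. Col6a3 to Col6a1 averaged 0.143 ± 0.0253 in senescent and 0.0657 ± 0.00656 in quiescent libraries, and Col12a1 to Col14a1 averaged 4.57 ± 0.191 and 0.348 ± 0.00876 (SD, n = 3), the widest separation of the 12.

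**Figure D4:**
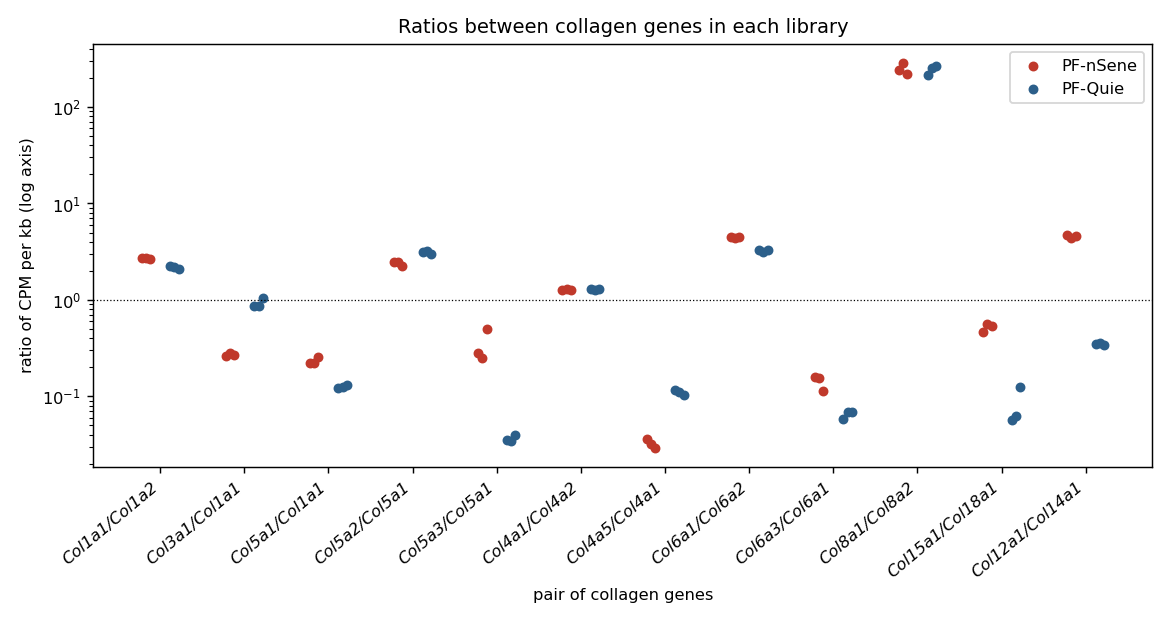
Ratio of CPM per kb between 12 pairs of collagen genes in each library, on a log axis, with senescent libraries (PF-nSene, red) left of quiescent ones (PF-Quie, blue) and a dotted line at 1. Col4a1/Col4a2 and Col8a1/Col8a2 overlap between the groups, and Col12a1/Col14a1 lies at 4.36 to 4.73 in senescent and 0.340 to 0.357 in quiescent libraries.

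Before a collagen chain leaves the cell it is hydroxylated, glycosylated, folded with chaperones and packed into large COPII carriers, and outside it is trimmed, cross-linked, bound and broken down. Of 14 tested genes for chain hydroxylation and glycosylation, 9 were higher and 4 lower, with a median log2 fold change of 0.29, against 36.7% higher and 37.8% lower and a median of -0.02 over all tested genes. P4ha2, for a prolyl hydroxylase subunit, was 2.82-fold higher, and Plod3, for a lysyl hydroxylase, had a log2 fold change of 0.96. P4ha3 (-1.98) and P3h3 (-0.41), both prolyl hydroxylase genes, fell. Of 17 genes for folding and export, 13 were higher and 1 lower, with a median of 0.30 (all tested genes: 36.7% higher, 37.8% lower). Sar1b (0.91), a COPII GTPase gene, and Tmem39a (0.67) were the highest, Mia3, the gene of the collagen export receptor TANGO1, had -0.14, and Serpinh1, the gene of the collagen chaperone HSP47, did not pass, at 249 ± 9.43 CPM in senescent and 262 ± 2.68 CPM in quiescent libraries (SD, n = 3; adjusted p = 0.20 in edgeR). Both medians rested on the scaling: under library totals they were -0.01 and 0.00, with 3 higher and 4 lower and with 6 higher and 3 lower.

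Outside the cell, 3 of 7 tested genes of propeptide cleavage were higher and 3 lower, shares near those of all tested genes (36.7% and 37.8%). On the log2 scale Tll1 (2.62) and Adamts14 (1.94) were higher, whereas Adamts2 (-1.39), the main amino-terminal procollagen protease gene, and Pcolce (-1.12), an enhancer of carboxy-terminal cleavage, fell. Adamts2 had 87.1 ± 5.75 CPM in senescent and 228 ± 1.48 CPM in quiescent libraries (SD, n = 3). Of 5 lysyl oxidase genes, which cross-link fibrils, 3 were higher (36.7% of all tested genes were), among them Loxl2 (0.89) and Loxl4 (0.84), and Loxl1 (-0.50) was lower. Genes of fibril-bound proteoglycans and regulators were lower in 8 of 12 and higher in 3, with a median of -0.77, where 37.8% of all tested genes were lower and 36.7% higher. Ogn (-2.60) and Fmod (-1.20), both small leucine-rich proteoglycans, fell, and Fn1, the fibronectin gene, rose by 0.94. The increase of Dcn (0.18) became -0.12 under library totals. Of 12 breakdown genes, 5 were higher and 5 lower, and of 9 receptor genes 4 were higher and 3 lower, again near the shares of all tested genes (36.7% and 37.8%). The breakdown genes had the collagenase gene Mmp13 at 6.83, Ctsl at 0.55, Mmp16 at -2.28 and Mmp8, a second collagenase gene, at -1.24. Among the receptor genes Itgb1, the shared subunit of collagen-binding integrins, rose by 1.17 and Sdc1 by 0.86, while Itga1, whose integrin binds type IV collagen, fell by 2.80 and Ddr1 by 0.87 on the log2 scale.

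**Figure D5:**
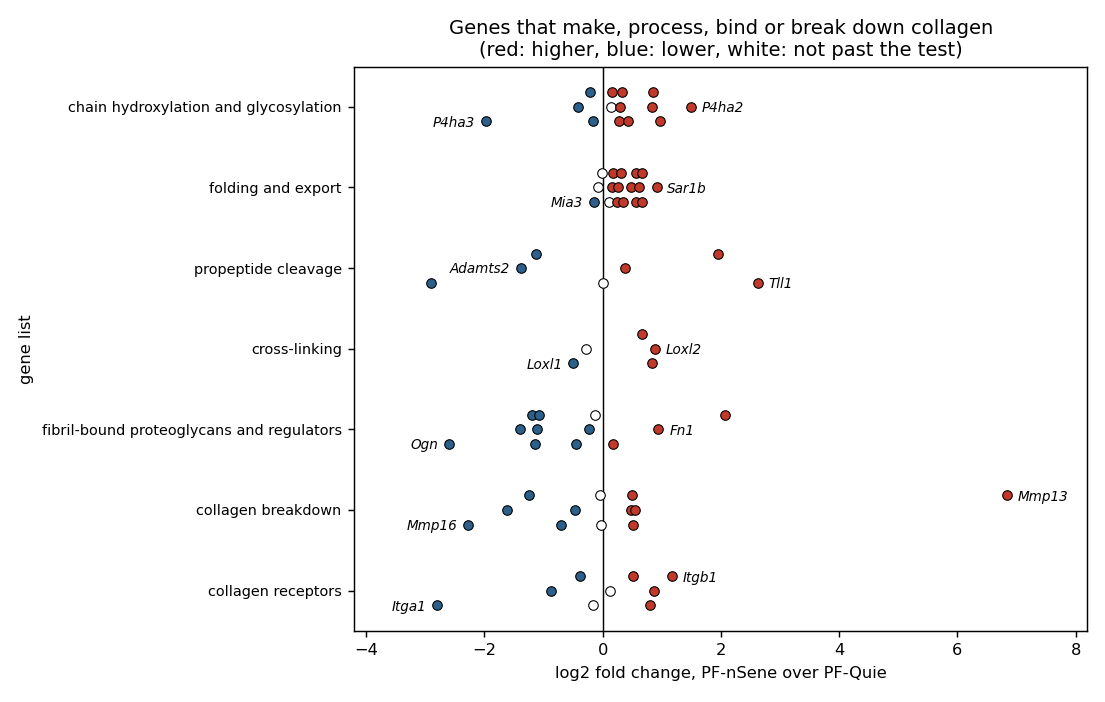
Log2 fold change (senescent PF-nSene over quiescent PF-Quie) of the tested genes in 7 lists of collagen modification, export, trimming, cross-linking, binding and breakdown; red points were higher, blue points lower and white points did not pass an adjusted p of 0.05. The folding and export genes lie between -0.14 and 0.91, and Mmp13 stands at 6.83; names mark the highest and lowest of the genes named in the text per list.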

How the data were processed

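The table deposited by the authors holds raw counts, 1 row per gene symbol, as whole numbers. The submitters' processing notes list build mm10, edgeR 3.32.1 and limma 3.46.0 but not what each was for. The aligner and counter are not stated there, nor is the use of strand, so genes sharing exon bases with an opposite-strand gene are uncertain: Col9a3 shares 6.07% of its exon bases with Tcfl5, Col4a3 5.65% with C430014B12Rik (a gene with no row in the table), Col10a1 0.58% with Nt5dc1, and Col4a1 and Col4a2 0.29% and 0.33% with each other; Col5a1, Col4a2, Col22a1, Col6a6 and Col15a1 share 0.17% to 1.33% with annotated transcripts that have no row. The deposited repeat counts were not used here. Differences were tested in R 4.3.3 with edgeR 4.0.16 (filterByExpr with a minimum count of 10, TMM, robust quasi-likelihood F test, Benjamini-Hochberg adjustment over all 14065 tested genes, threshold 0.05), on all 6 libraries. A prior run on simulated counts gave every gene the same scatter, so it cannot vouch for these calls. Standard errors (SE) were taken as the absolute log2 fold change over the root of F. CPM use the TMM-adjusted total with ribosomal rows included, which hold 79.8% to 82.8% of counts, so levels look low. CPM per kb divide by merged GENCODE M21 exons; 24321 of 25239 symbols matched.

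Alternatives were DESeq2 1.42.0, limma-voom (limma 3.58.1), other scalings, filters and thresholds, a block for the replicate number, and leaving out each library in turn. Values in every library are given for genes past the test at 2-fold or more and for the 8 most abundant per kb; pathway lists name up to 2 genes per direction whose mean log2 CPM is 0 or more. The collagen genes, classes and lists were chosen with earlier results of these data known.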

Additional observations from a re-analysis of the deposited data

How the results depend on the processing

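Of the 28 collagen genes called, 25 (9 higher, 16 lower) kept their direction and stayed past the threshold under every alternative in which they were tested, other than the direct test of a 1.5-fold change (Col6a6 and Col22a1 were not tested at a minimum count of 30); Col20a1, Col5a2 and Col8a2 did not. In that direct test 9 genes were higher and 11 lower. Leaving out 1 library at a time gave 10 to 11 higher and 17 to 18 lower genes, with medians of -0.34 to -0.21. Scaling by library totals moved the collagen median to -0.55 while that of all genes moved to -0.32, and it turned Col16a1 to -0.23 (adjusted p = 0.013), a gene not called at first and called higher without senescent replicate 3 (0.12, adjusted p = 0.042). Over 11582 genes the deviations of same-numbered libraries correlated at 0.10, -0.0002 and 0.12. Between differently numbered libraries the correlations ran from -0.22 to 0.16, so the numbers are not taken as pairs. Over the collagen genes alone, replicate 2 had the highest and replicate 3 the lowest median log2 difference from its group mates in both groups. These medians were 0.07 and -0.04 in quiescent and 0.08 and -0.11 in senescent libraries. With the replicate number as a block 11 genes were higher and 19 lower, Col1a1 and Col11a1 being added. Their edgeR adjusted p was 0.0083 and 6.8e-06 in that fit. The difference in the log2 ratio of Col8a1 to Col8a2, near 0, ran from -0.087 to 0.094 when each library was left out, and the difference in the FACIT share ran from -0.33 to 0.13 percentage points per kb and was 2.95 in raw counts. The cause of these changes was not tested. Depth limits genes such as Col25a1 and Col6a5, with too few counts for a test.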
